A study of Mus musculus with 8 samples.

Results

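Erythroid transcripts were followed through RNAseq libraries of sorted regulatory T cells (Treg). The genes are Hba-a1, Hba-a2, Hbb-bs, Hbb-bt, Alas2, Slc4a1 and Car2, chosen by name as genes of red blood cells, and they are 7 of the 38215 genes listed in the deposited tables. All 7 were found, with Hbb-bs and Hbb-bt listed under the older symbols Hbb-b1 and Hbb-b2 and matched by Ensembl identifier. FoxP3+ Treg had been sort purified from the bone marrow (BM-Treg) or the spleen (SP-Treg) of naïve mice at an age of 12 weeks, and 4 libraries were made from each tissue. The labels give the genotype of all libraries as C57Bl/6, and the study's methods name the B6.FoxP3-GFP reporter line, in which cells that express FoxP3 carry a green fluorescent protein. BM-Treg replicates 1 to 3 are labelled as batch 1 and female, whereas batch 3 and male are the labels of BM-Treg replicate 4 and of every SP-Treg library. No treatment separated the groups. The methods call the replicates biological, but the sources used here do not say whether a library holds cells of 1 mouse or of pooled mice, nor whether the sort had a gate against erythroid cells.

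Red blood cells carry hemoglobin, which is built of alpha chains (Hba-a1 and Hba-a2) and beta chains (Hbb-bs and Hbb-bt) that each hold a heme group. Alas2 encodes the erythroid form of the enzyme that starts heme synthesis, Slc4a1 encodes band 3, the anion exchanger of the red cell membrane, and Car2 encodes a carbonic anhydrase that is also made in several other cell types. Mouse bone marrow makes red cells throughout life, and the mouse spleen both makes red cells and filters old ones. In a bulk sample, fewer cells of a type and less RNA per cell cannot be told apart.

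The copies of each globin share most of their stretches of 80 bases, the length of a read, which bears on every value of a single globin gene below. In GENCODE M21, the 429 coding bases of Hba-a1 and Hba-a2 differ at 1 position (C381T, the base of Hba-a1 first, counted from the first base of the start codon), and the 444 coding bases of Hbb-bs and Hbb-bt differ at 1 position (C417T, the base of Hbb-bs first). The 60 coding bases around each difference are shown with the differing base in capitals. All of them lie in exon 3 of the gene's first listed transcript, on GRCm38, at chr11:32284313-32284372 (plus strand) for Hba-a1, chr11:32297130-32297189 (plus strand) for Hba-a2, chr7:103826665-103826724 (minus strand) for Hbb-bs and chr7:103812656-103812715 (minus strand) for Hbb-bt.
Hba-a1: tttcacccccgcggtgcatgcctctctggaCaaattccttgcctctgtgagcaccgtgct
Hba-a2: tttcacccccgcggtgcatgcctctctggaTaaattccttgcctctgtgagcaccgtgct
Hbb-bs: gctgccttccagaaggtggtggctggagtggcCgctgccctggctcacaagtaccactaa
Hbb-bt: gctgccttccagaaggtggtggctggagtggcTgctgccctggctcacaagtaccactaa
Of the 475 stretches of 80 bases in the Hba-a2 transcript, 379 (79.8%) occur unchanged in that of Hba-a1, and of the 624 in the Hbb-bt transcript, 351 (56.2%) occur in that of Hbb-bs. Expected counts divide such reads between the copies by an estimate. The sum of a pair is therefore better determined than its parts, and is given beside them.

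As a description, the sequences before the starts of the 7 genes, which were chosen as red cell genes, were compared. Whether they bear on the levels in these libraries was not tested. RefSeq windows (GRCm38.p6) were found for 5 of the 7 genes, the globins and Alas2, and not for Slc4a1 and Car2. In the 250 bases before the start, 4 short motifs were searched on both strands: GATAA, the core bound by GATA factors and named after it, CACCC, a core bound by the erythroid factor KLF1, CCAAT, which is common in promoters, and TATAA, which is part of the box that places the start of transcription. GATAA was found in 5 of 5 windows and in 22.6% of the 32851 windows of this length, CACCC in 5 of 5 and in 52.0%, TATAA in 5 of 5 and in 22.8%, and CCAAT in the 4 globin windows and in 33.8%. Each globin window had a TATAA within -30 to -23 of the start. In Alas2 the only TATAA matches lay at -208 to -203, away from that place. The windows of Hba-a1 and Hba-a2 are equal over 247 bases when shifted by 3, so that they are not independent of each other. The window of an alpha, a beta and the heme gene is shown as far as no GENCODE M21 transcript of the gene begins, with matches in capitals. These lie at chr11:32296242-32296488 (plus strand), chr7:103813997-103814173 (minus strand) and chrX:150547167-150547374 (plus strand). TATAA and its reverse complement overlap in Alas2. The CACCC matches of Alas2 (-40 to -26) and the TATAA of Hbb-bt at -28 lie outside the parts shown. So do, wholly or in part, the CCAAT matches of Hbb-bt that begin at -36 and -75.
Hba-a2: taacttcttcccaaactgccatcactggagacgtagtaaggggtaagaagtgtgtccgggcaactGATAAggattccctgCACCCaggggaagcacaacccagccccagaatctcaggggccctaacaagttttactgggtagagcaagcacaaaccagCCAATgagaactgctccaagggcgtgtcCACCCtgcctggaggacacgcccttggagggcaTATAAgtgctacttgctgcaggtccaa
Hbb-bt: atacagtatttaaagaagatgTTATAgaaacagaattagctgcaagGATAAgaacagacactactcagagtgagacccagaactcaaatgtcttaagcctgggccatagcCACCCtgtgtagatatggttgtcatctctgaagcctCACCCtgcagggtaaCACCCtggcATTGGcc
Alas2: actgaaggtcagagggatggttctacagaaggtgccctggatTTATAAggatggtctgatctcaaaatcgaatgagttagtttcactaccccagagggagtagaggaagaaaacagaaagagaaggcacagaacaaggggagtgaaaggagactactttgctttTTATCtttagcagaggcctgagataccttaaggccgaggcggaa
A match is a string of letters and not a measured site.

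Expected counts summed to between 12427136 and 21921252 per library. Levels below are CPM, the counts of a gene scaled to a common library total, on library sizes normalized by TMM, a method that scales libraries by the bulk of their genes. The Treg label was checked against its markers: Foxp3 had between 17336.3 and 39637.6 expected counts in every library, and the 9 Treg markers together lay between 7664 and 9212 CPM, with ranges of both tissues overlapping. Within each tissue, any pair of libraries differed by more than counting noise (chi-square per degree of freedom of 14.2 or more, from genes averaging 50 counts or more). By this measure SP-Treg replicate 1 stood apart from the other SP-Treg libraries over all such genes. Its pairs gave 53.1 to 92.4, against 19.6 to 26 among the others, so that results are given with and without it. Within BM-Treg, the pairs that include replicate 4, the only one of batch 3, gave the highest values. These were 40.6 to 45.3, against 14.2 to 31.1 for pairs of replicates 1 to 3. Each library was therefore also left out in turn.

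The order of the highest libraries was the same in all 7 genes, while the order within BM-Treg differed between genes. SP-Treg replicates 3, 4 and 2 ranked in this order at the top of each of them, above all BM-Treg libraries, while SP-Treg replicate 1 was the lowest of the 8 libraries in 6 of the 7. Together the 7 genes took 483, 307 and 195 CPM in SP-Treg replicates 3, 4 and 2, and 2.55 CPM in SP-Treg replicate 1. BM-Treg replicates 1 to 4 lay between, at 16.9, 35.0, 21.6 and 21.5 CPM. Even in the highest library this was 0.0447% of all counts (95% Wilson interval 0.0436 to 0.0459), and in SP-Treg replicate 1 it was 2.75e-04% (2.01e-04 to 3.85e-04). Such intervals cover counting error only, as amplified molecules were not tagged.

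The alpha globin genes lie on chromosome 11, Hba-a1 (ENSMUSG00000069919) from 32283511 to 32284465 and Hba-a2 (ENSMUSG00000069917) from 32296489 to 32297298. Hba-a1 was at 1.15, 1.79, 2.48 and 2.99 CPM in BM-Treg replicates 1 to 4 and at 0.270, 18.0, 48.3 and 28.6 CPM in SP-Treg replicates 1 to 4. Hba-a2 was at 1.31, 4.47, 4.04 and 3.69 CPM in BM-Treg and at 0.0172, 38.6, 66.5 and 41.4 CPM in SP-Treg. In both genes the tissues overlapped only through SP-Treg replicate 1, which lay below every BM-Treg library. As a pair they had 45.0 to 149.0 counts in BM-Treg and 4.0, 711.0, 1373.0 and 954.3 counts in SP-Treg. The 0.24 counts of Hba-a2 in SP-Treg replicate 1 are below 3 counts, the floor used here, which in that library is 0.216 CPM.

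The beta globin genes lie on chromosome 7, Hbb-bs (ENSMUSG00000052305) from 103826534 to 103828096 and Hbb-bt (ENSMUSG00000073940) from 103812524 to 103813996. Hbb-bs was at 6.81, 14.1, 10.6 and 8.57 CPM in BM-Treg replicates 1 to 4 and at 0.647, 84.5, 227 and 140 CPM in SP-Treg replicates 1 to 4. Hbb-bt was at 1.02, 8.92, 2.97 and 3.54 CPM in BM-Treg, at 40.9, 97.7 and 72.4 CPM in SP-Treg replicates 2 to 4, and had 0 counts in SP-Treg replicate 1, which allows up to 0.216 CPM there. Again SP-Treg replicate 1 was the lowest library and the other SP-Treg libraries the highest. The Hbb pair reached 3881.0 counts in SP-Treg replicate 3 and 9.0 in SP-Treg replicate 1, against 143.0 to 496.0 in BM-Treg. Among the BM-Treg libraries, replicate 2 was the highest in both beta genes and replicate 1 the lowest.

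Alas2 (ENSMUSG00000025270, X chromosome, 150547375 to 150570638) varied over a narrower range. It was at 2.30, 3.08, 0.879 and 1.73 CPM in BM-Treg and at 0.828, 4.48, 10.5 and 6.80 CPM in SP-Treg. SP-Treg replicate 1 lay just below BM-Treg replicate 3, with 11.5 and 20.1 counts. Slc4a1 (ENSMUSG00000006574, chromosome 11, 102348824 to 102366203) was at 1.75, 1.30, 0.394 and 0.668 CPM in BM-Treg and at 0.0718, 5.89, 24.9 and 12.4 CPM in SP-Treg. Its 1.0 count in SP-Treg replicate 1 is below the floor, and the 298.0 counts of SP-Treg replicate 3 are the most of any library. Car2 (ENSMUSG00000027562, chromosome 3, 14886426 to 14900769) was the gene in which SP-Treg replicate 1 was not the lowest. It was at 2.57, 1.44, 0.263 and 0.334 CPM in BM-Treg and at 0.718, 2.95, 8.28 and 5.65 CPM in SP-Treg, so that SP-Treg replicate 1 lay among the BM-Treg libraries, above replicates 3 and 4.

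**Figure D1:**
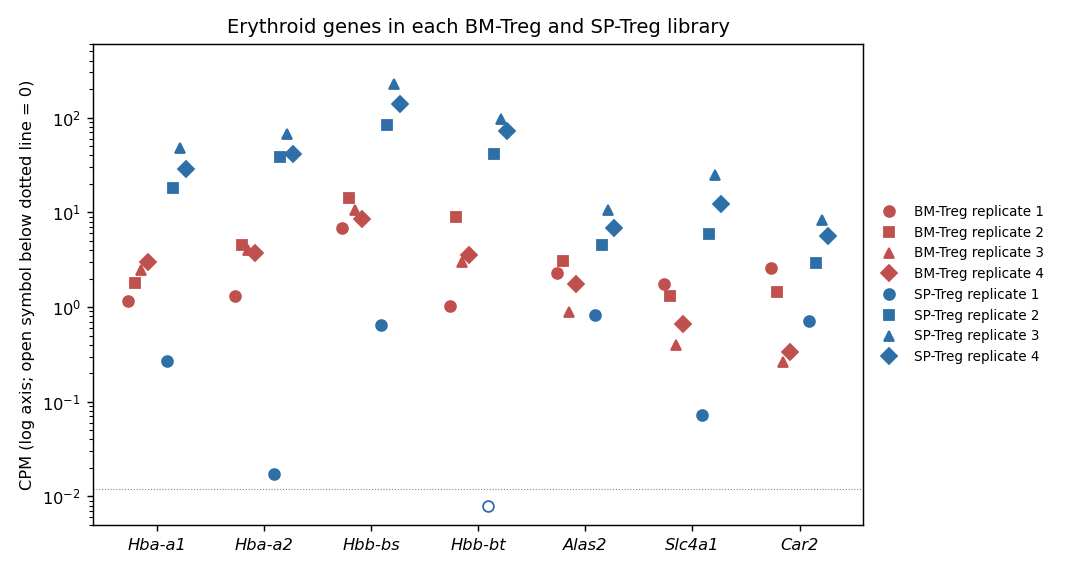
Level of each of the 7 genes in each library, in CPM on a log axis. Each symbol is 1 library, red for BM-Treg and blue for SP-Treg; the open circle below the dotted line is the 0 of Hbb-bt in SP-Treg replicate 1. SP-Treg replicates 2 to 4 lie above all BM-Treg libraries in every gene, and SP-Treg replicate 1 is the lowest library except in Car2.

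Per length, in the authors' FPKM, Hbb-bs was the most abundant of the 7 in every library. It ranged from 14.16 to 29.14 FPKM in BM-Treg and reached 395.87 FPKM in SP-Treg replicate 3, place 128 among the 18324 genes listed above 0 there. In SP-Treg replicate 1 it was at 1.31 FPKM and place 12007 of 17799. Over the 8 libraries the mean FPKM was 113 for Hbb-bs, 43.1 for Hbb-bt, 39.8 for Hba-a2, 28.7 for Hba-a1, 3.22 for Alas2, 1.56 for Car2 and 1.26 for Slc4a1. The order of neighbours was not fixed: Hba-a2 lay above Hbb-bt in BM-Treg replicate 1 (2.85 and 1.69 FPKM) and below it in BM-Treg replicate 2 (9.79 and 14.92 FPKM), and Slc4a1 lay below Car2 in BM-Treg replicate 1 (0.41 and 1.56 FPKM) and above it in SP-Treg replicate 3 (5.16 and 4.47 FPKM).

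Whether the tissues differed was tested with edgeR's quasi-likelihood test over the 13397 genes that passed the expression filter, with Benjamini-Hochberg (BH) adjustment over all of them. All 7 genes passed the filter and had a negative log2 fold change, that is, a lower estimate in BM-Treg, but 0 of 7 passed the threshold of 0.05. In the background, 8.75% of genes passed it in either direction and 5.02% as lower in BM-Treg. At an unadjusted p under 0.05, 7 of 7 were lower in BM-Treg, against 12.4% of all genes. DESeq2 passed 4 of 7 as lower in BM-Treg (background 6.88%), while limma-voom and limma-trend on FPKM passed 0, with log2 fold changes by limma-voom of -2.17 to -1.13. The genes had a median log2 fold change of -3.43 and all genes tested one of -0.01.

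Hbb-bt had the largest log2 fold change by edgeR, with 4.11 ± 3.38 CPM for BM-Treg against 52.8 ± 42.2 CPM for SP-Treg (SD, n = 4 each). This came to a log2 difference of -3.65 with a standard error of 1.37 (edgeR adjusted p = 0.179). For Hba-a1 the log2 fold change was -3.51 (standard error 1.15, edgeR adjusted p = 0.130), from 2.10 ± 0.804 and 23.8 ± 20.1 CPM. Hbb-bs (10 ± 3.11 and 113 ± 95.0 CPM), Hba-a2 (3.38 ± 1.41 and 36.6 ± 27.4 CPM) and Slc4a1 (1.03 ± 0.613 and 10.8 ± 10.7 CPM) had log2 fold changes of -3.49, -3.43 and -3.37, with edgeR adjusted p of 0.158, 0.165 and 0.158. The estimates were smaller for Car2, at -1.90 (standard error 0.83, edgeR adjusted p = 0.208), and for Alas2, at -1.49 (standard error 0.63, edgeR adjusted p = 0.192). The SD within SP-Treg was between 71.9% and 98.5% of the SP-Treg mean over the 7 genes, and that within BM-Treg between 31.1% and 94.6%. Summing the copies left the result as it was, with a log2 fold change of -3.46 for the Hba pair (edgeR adjusted p = 0.153) and -3.54 for the Hbb pair (edgeR adjusted p = 0.171). The exact two-sided permutation test over the libraries on log2 CPM, run for each of the 7 genes, gave p from 0.114 for Car2 to 0.514 for Hba-a2, where 4 libraries against 4 can reach 0.0286.

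Each library was left out in turn, and only the fit without SP-Treg replicate 1 brought any of the 7 genes past the threshold. Without that library, edgeR passed 6 of 7 as lower in BM-Treg, against 3.95% of the 13786 genes tested then. The library left out was the lowest of all in 6 of the 7 genes, so that this fit lacks the values that oppose a difference. No call is drawn from it. The log2 fold change was -3.90 for Hba-a1 (standard error 0.38, edgeR adjusted p = 6.77e-04), -3.83 for Hba-a2 (standard error 0.36, edgeR adjusted p = 7.77e-04) and -3.88 for Hbb-bs (standard error 0.39, edgeR adjusted p = 0.00245). Hbb-bt, Slc4a1 and Alas2 followed at -4.05, -3.77 and -1.84, with edgeR adjusted p of 0.0274, 0.00571 and 0.0159, and Car2 did not pass (-2.25, edgeR adjusted p = 0.0748). With all libraries, in 0 of 7 genes every BM-Treg library lay below every SP-Treg library (8.55% of genes tested), and without SP-Treg replicate 1 this held in 7 of 7 (10.9%). The latter restates the order of libraries given above. SP-Treg replicate 1 was below every other library in 6 of 7 genes (16.8% of genes tested), and SP-Treg replicate 3 above every other in 7 of 7 (11.4%). These counts go together, since the 7 genes share the same 8 libraries.

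**Figure D2:**
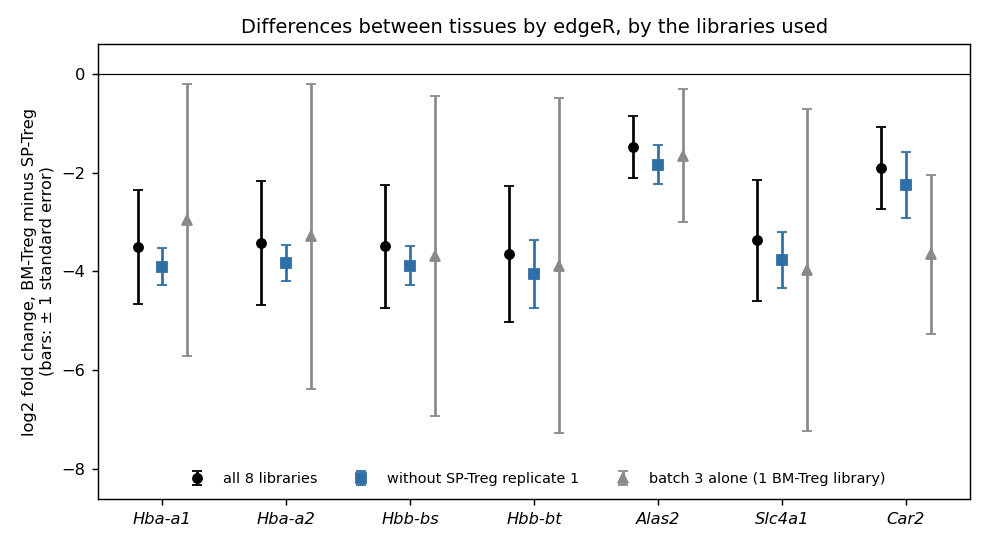
Log2 fold change of each gene, BM-Treg minus SP-Treg, by edgeR, with bars of 1 standard error, from all 8 libraries (black), without SP-Treg replicate 1 (blue) and within batch 3 (grey, 1 BM-Treg library, whose spread is taken from the SP-Treg). All estimates lie below 0, between -4.05 and -1.49, and the bars are shortest without SP-Treg replicate 1.

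Batch and tissue could be set apart only through BM-Treg replicate 4, which shares batch 3 and the labelled sex with the SP-Treg. Its level of the 7 genes together, 21.5 CPM, lay within the range of the batch 1 libraries (16.9 to 35.0 CPM). Of the single genes, only Hba-a1 lay outside its batch 1 range, at 2.99 CPM against 1.15 to 2.48 CPM. Within batch 3 the log2 fold changes were -3.88 for Hbb-bt, -3.69 for Hbb-bs, -3.29 for Hba-a2, -2.95 for Hba-a1, -3.97 for Slc4a1, -3.65 for Car2 and -1.66 for Alas2. None of them passed (lowest edgeR adjusted p = 0.367, for Car2), where 0.359% of all genes passed as lower in BM-Treg. With batch as a term none passed either (lowest edgeR adjusted p = 0.323, for Car2), against 1.10% of all genes. For Car2 and Slc4a1, BM-Treg replicates 3 and 4 had 4.0 to 9.0 counts and replicates 1 and 2 had 28 to 47, so that levels differed within batch 1 too.

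The genes did not keep 1 ratio to each other over the libraries. The 4 globin genes together had 40.6, 41.8 and 41.5 counts per count of Alas2 in SP-Treg replicates 2, 3 and 4, with exact 95% counting intervals from 31.3 to 54.2. In BM-Treg replicates 1 to 4 this ratio was 4.48, 9.49, 22.8 and 10.8, and in SP-Treg replicate 1 it was 1.13 (0.456 to 2.60). The intervals of BM-Treg replicates 1, 2 and 4 and of SP-Treg replicate 1 lie wholly below those of SP-Treg replicates 2 to 4, and that of BM-Treg replicate 3 (14.7 to 37.8) overlaps them. Slc4a1 was likewise lower relative to Alas2 in BM-Treg, at 0.763, 0.421, 0.448 and 0.385, than in SP-Treg replicates 2 to 4, at 1.32, 2.37 and 1.82, although the intervals of BM-Treg replicates 1 (0.466 to 1.24) and 3 (0.180 to 1.03) overlapped that of SP-Treg replicate 2, which began at 0.921. For SP-Treg replicate 1, with 1.0 count of Slc4a1, the ratio was 0.0868 (0.00195 to 0.563).

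The ratio of the Hbb pair to the Hba pair lay between 1.81 and 3.67 in BM-Treg and between 2.21 and 3.03 in SP-Treg, so that the ranges of the tissues overlapped. It too varied beyond counting error, with 3.67 (3.03 to 4.48) in BM-Treg replicate 2 and 1.81 (1.37 to 2.41) in BM-Treg replicate 4. The globin genes per count of Slc4a1 came to 5.88, 22.5, 50.9 and 28.1 in BM-Treg and 30.9, 17.6 and 22.8 in SP-Treg replicates 2 to 4. For Car2 they came to 4.00, 20.4, 76.3 and 56.2 in BM-Treg and 61.8, 53.1 and 49.9 in SP-Treg replicates 2 to 4. In SP-Treg replicate 1 they came to 13.0 per count of Slc4a1 (1.95 to 552) and to 1.30 per count of Car2 (0.527 to 3.31), the lowest of the 8 libraries for Car2. BM-Treg replicate 1 thus had the fewest globin counts per count of Alas2, Slc4a1 and Car2 among the BM-Treg, with intervals of 3.19 to 6.41, 4.02 to 8.84 and 2.89 to 5.63. No test was made on these ratios, which rest on as few as 4.0 counts of Car2.

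**Figure D3:**
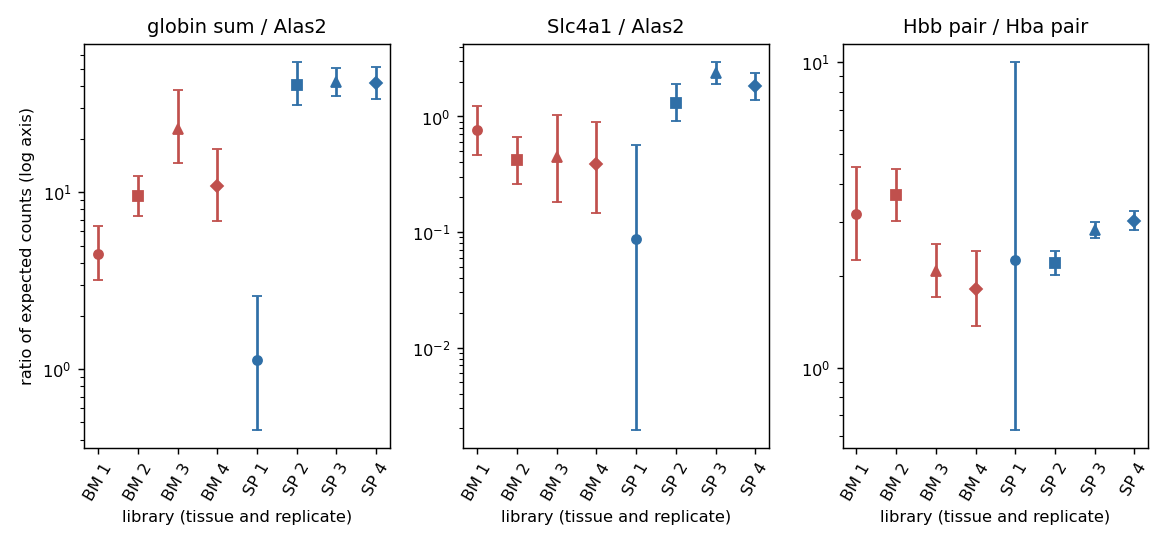
Ratios of expected counts within each library on log axes: the 4 globin genes per Alas2, Slc4a1 per Alas2, and the Hbb pair per Hba pair. Points are ratios and bars are exact 95% counting intervals; BM and SP stand for BM-Treg and SP-Treg. The ratio of globins to Alas2 is 40.6 to 41.8 in SP-Treg replicates 2 to 4 and at most 22.8 in the other libraries, while the Hbb to Hba ratio stays between 1.81 and 3.67.

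The deposited transcript table divides each gene further. Most counts of Hbb-bs fell on a transcript annotated as retained intron, ENSMUST00000131960, with 63.5 to 80.4% in BM-Treg and 58.7 to 81.0% in SP-Treg. Of its 344 bases, 55 (16.0%) lie outside the exons of the full-length transcript. For Hba-a1, ENSMUST00000142555, also a retained intron form, took 94.6, 91.7 and 96.7% in SP-Treg replicates 2 to 4 and 100, 58.4, 62.0 and 100% in BM-Treg replicates 1 to 4. All counts of Hba-a2 fell on its coding transcript, although the gene has a retained intron form of the same 494 bases. Since most bases of these forms are shared with the coding ones, the split is an estimate, and whether intron sequence was present was not tested. All counts of Slc4a1 fell on its coding transcript.

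Other genes of red cells were taken from lists of 57 further genes found in the tables. Of 29 that passed the filter, Tfrc and Sptb passed the test, both lower in BM-Treg, and 0 were higher, a share near the background of 5.02% lower and 8.75% in either direction. The 29 include genes at high levels in both tissues, such as Bnip3l, at 149 CPM over BM-Treg and 143 CPM over SP-Treg. The other 28 did not reach the filter, so that the share does not stand for red cell genes in general. Tfrc, the transferrin receptor, which proliferating lymphocytes also use for iron uptake, averaged 27.2 ± 1.58 CPM over BM-Treg libraries and 52.9 ± 12 CPM over SP-Treg libraries (SD, n = 4 each), and its log2 fold change was -0.96 (standard error 0.15, edgeR adjusted p = 0.00172). It did not follow the 7 genes, as SP-Treg replicate 1, at 54.5 CPM, lay among the other SP-Treg libraries. Sptb, beta spectrin of the membrane skeleton, averaged 0.989 ± 0.255 and 4.73 ± 1.73 CPM, and its log2 fold change was -2.23 (standard error 0.37, edgeR adjusted p = 0.00218). For Sptb, SP-Treg replicate 1 was the lowest SP-Treg library at 2.44 CPM, still above all BM-Treg.

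By list, heme synthesis and iron uptake had 13 of 14 genes past the filter, 1 passing the test (Tfrc) and a median log2 fold change of -0.03. Alas1, the form of the first heme enzyme that is not restricted to erythroid cells, averaged 8.68 ± 2.04 CPM over BM-Treg and 8.64 ± 1.37 CPM over SP-Treg libraries (SD, n = 4 each), 0.01 apart on the log2 scale (edgeR adjusted p = 0.982). The highest mean FPKM in this list were those of Urod and Tfrc, 26.5 and 13.6. Membrane and cytoskeleton genes had 7 of 17 past the filter, 1 passing (Sptb) and a median of -0.43, with Epb41 and Slc2a1 the most abundant (mean 24.7 and 22.0 FPKM, log2 fold changes -0.09 and 0.31). Enzymes and other red cell genes had 6 of 12 past the filter, 0 passing and a median of -0.16, with Bnip3l and Cat the most abundant (75.8 and 61.4 FPKM). Of transcription factors and the erythropoietin receptor, 3 of 8 passed the filter and 0 the test, with a median of -0.34 and with Zfpm1 and Gata1 the most abundant (5.33 and 1.36 FPKM). Gata1 was at 1.49 ± 0.349 CPM in BM-Treg and at 0.359, 0.876, 2.76 and 3.60 CPM in SP-Treg replicates 1 to 4. Of these genes, Slc25a37, a mitochondrial iron carrier, was at -0.41 (edgeR adjusted p = 0.342) with all libraries. It passed without SP-Treg replicate 1 (-0.59, edgeR adjusted p = 0.0493), which was its lowest library at 22.4 CPM. Ermap, of the membrane list, did not reach the filter with all libraries. Without SP-Treg replicate 1 it did and passed the test (-2.86, edgeR adjusted p = 0.0259).

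The 28 erythroid list genes that did not reach the filter with all libraries, Ermap included, were also examined, as a description without a test. The embryonic globin genes Hbb-bh1, Hbb-y and Hba-x had 0 counts in every library, as had Hbb-bh2, Hbq1a and Gfi1b. Of the 22 others, 16 were highest in SP-Treg replicate 3. The same held for 7 of the 29 erythroid list genes past the filter and for 11.4% of all genes tested. All genes tested lie past the filter, and the share among all genes below it was not computed. Together the 28 came to 1.08 CPM in SP-Treg replicate 1, 1.80 to 2.97 CPM in BM-Treg, and 6.69, 21.5 and 12.3 CPM in SP-Treg replicates 2, 3 and 4, so that the SP-Treg libraries stood in the same order as in the 7 genes, while the order within BM-Treg differed. Hemgn, hemogen, a nuclear protein of blood precursors, had 4, 7, 0 and 2 counts in BM-Treg and 0, 5, 26 and 15 counts in SP-Treg replicates 1 to 4. Klf1, an erythroid transcription factor, had at most 7 counts in any library, and Epor, the erythropoietin receptor, at most 6.

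Markers of other blood cells were read in the same libraries. Of 12 platelet and megakaryocyte genes, Gp6, Treml1 and Tubb1 had 0 counts in every library and Pf4 had 4 in all, and the list's sum overlapped between tissues (BM-Treg 2.10 to 4.26 CPM, SP-Treg 1.70 to 4.10 CPM). The 12 neutrophil genes summed to 0.216 CPM, 3.0 counts, in SP-Treg replicate 1, to 20.7, 9.78 and 7.55 CPM in SP-Treg replicates 2 to 4, and to 1.31 to 10.9 CPM in BM-Treg. SP-Treg replicate 1 was thus the lowest library here too, but the highest was SP-Treg replicate 2. The 11 B cell genes summed to 16.6, 157, 35.2 and 31.0 CPM in SP-Treg replicates 1 to 4 and to 16.2 to 22.1 CPM in BM-Treg, 1 of them, Igll1, at 0 in every library. For 10 macrophage genes the sums were 11, 16.2, 10.4 and 10.7 CPM in SP-Treg and 4.34 to 7.49 CPM in BM-Treg. Vcam1 passed the test (log2 fold change -2.92, edgeR adjusted p = 0.00222). It was at 7.04, 8.44, 3.51 and 2.79 CPM in SP-Treg replicates 1 to 4 and at 0.167 to 1.15 CPM in BM-Treg. Hmox1, the other gene of this list past the filter, did not pass the test (-0.15, edgeR adjusted p = 0.810). The part of other cells in the levels of the 7 genes was not tested.

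The remaining lists were plasma cell (6 genes, 52.0 to 74.7 CPM over BM-Treg and 64.4 to 95.0 CPM over SP-Treg), plasmacytoid dendritic cell (6 genes, 48.0 to 57.7 and 25.9 to 63.0 CPM) and CD8 T cell (2 genes, 10.8 to 12.6 and 13.2 to 41.0 CPM). In the last, Cd8a passed the test as lower in BM-Treg (log2 fold change -2.99, edgeR adjusted p = 0.0293). The plasmacytoid dendritic cell sum had the same order of SP-Treg libraries as the 7 genes. It was at 63.0, 52.6, 48.3 and 25.9 CPM in replicates 3, 4, 2 and 1, but its range overlapped that of BM-Treg. Ccr9, a chemokine receptor also of T cells, had that order on its own, at 41.7, 32.4, 21.7 and 8.76 CPM. Bst2 and Tcf4, the others of this list past the filter, did not. Siglech, below the filter, averaged 0.560 CPM over BM-Treg and 0.218 CPM over SP-Treg. In the plasma cell sum, Xbp1 alone averaged 59.1 CPM over BM-Treg and 64.8 CPM over SP-Treg. In the neutrophil, B cell, macrophage, plasma cell and CD8 sums replicate 2 was the highest SP-Treg library.

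**Figure D4:**
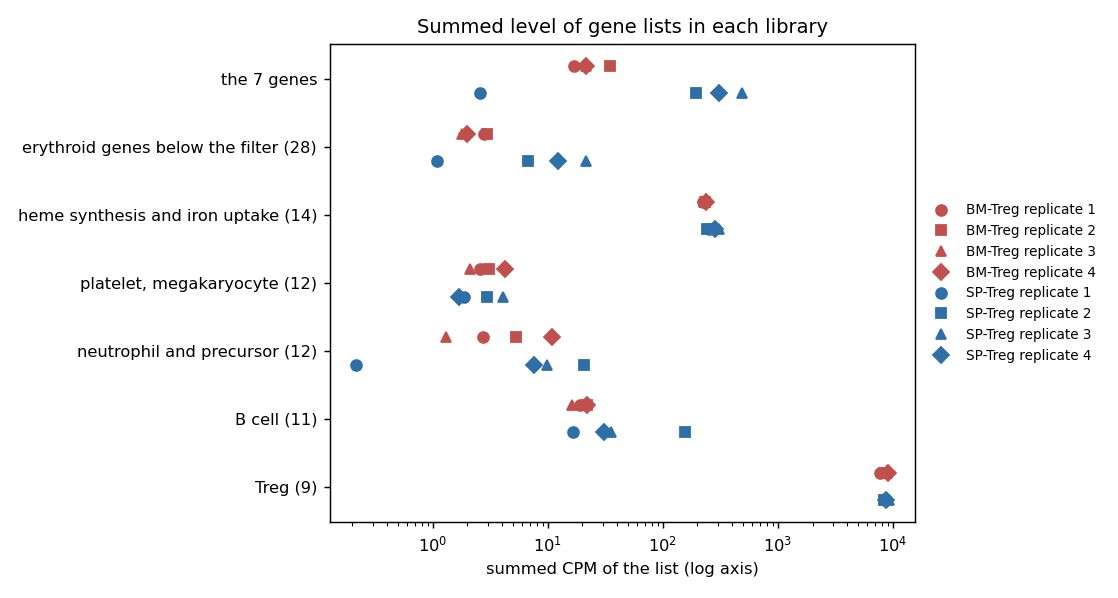
Summed CPM of gene lists in each library on a log axis, with the number of genes in parentheses. Each symbol is 1 library, red for BM-Treg and blue for SP-Treg. SP-Treg replicate 1 is the lowest library for the 7 genes (2.55 CPM), for the erythroid genes below the filter (1.08 CPM) and for neutrophil genes (0.216 CPM), while the Treg list lies between 7664 and 9212 CPM throughout.

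Likeness to the summed globin level was measured as the root mean square difference of log2 CPM over the 8 libraries, each profile centred on its mean. The globin genes themselves lay between 0.23 and 0.68 from their sum. Of the 3 others, Slc4a1 was closest to it (1.0 on the log2 scale), followed by Alas2 (1.73) and Car2 (1.96), where the median gene was at 2.71. Among all other genes tested, 5 were nearer to the globins than Alas2 was, and 21 nearer than Car2. The nearest were Igkv10-96 (1.25), Igkv12-98 (1.52), Cd24a (1.53) and Ngp (1.60). Of these, Igkv10-96 and Igkv12-98 are immunoglobulin light chain segments, whose counts are uncertain because the family is large and alike, Ngp belongs to neutrophil granules, and Cd24a encodes a surface protein of several blood cells, B cells and erythroid precursors included. Cd24a was at 6.35, 5.60, 5.73 and 2.34 CPM in BM-Treg and at 1.36, 23.7, 25.4 and 14.2 CPM in SP-Treg, so that it too was lowest in SP-Treg replicate 1.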

How the data were processed

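Sorted FoxP3+ Treg RNA went through NuGEN's isothermal amplification, and single-end reads of 80 nt were sequenced. What the authors deposited were expected counts for genes and transcripts, which share out ambiguous reads and so can hold decimals, without normalization, together with FPKM, which divide such values by length and depth. The submitters' processing notes name cutadapt 1.9, STAR 2.5.2a, RSEM 1.2.30 and GRCm38, with no parameters given. Of the 8 columns of each table used, all were matched to a library, and 0 were left over. Transcript FPKM were not used here.

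Expected counts were rounded, filtered by edgeR's default on the groups, scaled with TMM and compared by the quasi-likelihood test of edgeR, robust and without covariates (R 4.3.3, edgeR 4.0.16, limma 3.58.1, DESeq2 1.42.0), with BH adjustment over all genes tested. Log2 CPM used a prior count of 2. P-values set the difference between tissues against the spread between libraries, and whether this is the spread between mice is not known. Only the edgeR test was tried on simulated counts, drawn with means and dispersions estimated from these libraries, and the outcome is not reported here. Values at or under 3 counts were treated as at the floor. Symbols were matched through Ensembl identifiers: 132 of 133 list entries matched, 10 under another symbol, and Ahsp was not analysed here. Gene coordinates are those of the deposited tables.

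Named were the 7 genes, list genes that passed the test, the 2 with the highest mean FPKM of each erythroid list, the genes most like the globin sum (of 5, 1 is not reported here), and list genes needed to say what a list shows. Genes named from erythroid genes below the filter were chosen after their values were seen. The genes and lists were chosen with earlier results of these data known. Replicate numbers do not pair the tissues in the labels. Alternatives were another scaling (DESeq2's size factors, or none), DESeq2, limma-voom, limma-trend on FPKM in log2 with 1 or 0.1 added, other filters, batch as a term, batch 3 alone, a replicate block, summed copies, a minimum fold change and each library left out. Libraries of 1 tissue in a batch borrow the spread of the others.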

Additional observations from a re-analysis of the deposited data

Results flagged for a closer look

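In 14 groups of 4 libraries (7 genes in 2 tissues, on the log2 CPM scale), the gap between the lowest or highest library and its neighbour was compared with the group's range, as in Dixon's test at the 95% level. Chance flags about 1 in 20 groups. SP-Treg replicate 1 stood out as the lowest SP-Treg library in Hba-a2, with a gap of 0.912 of the range, and in Hbb-bt, with 0.869. For Hba-a2 the libraries were at 0.0172, 38.6, 66.5 and 41.4 CPM, and for Hbb-bt at 0, 40.9, 97.7 and 72.4 CPM. In Hba-a1 and Hbb-bs the gap of the same library was 0.796 and 0.827, below the critical value, and in the other genes it was smaller. BM-Treg replicate 1 stood out as the lowest BM-Treg library in Hba-a2, with a gap of 0.840 of the range (1.31 CPM against 3.69 to 4.47 CPM). The 2 flags of SP-Treg replicate 1 are of genes that move together and are not separate evidence.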

How the results depend on the processing

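Over 164 alternative values for single genes and pairs, all log2 fold changes stayed below 0 (-4.41 to -0.67, adjusted p from 6.77e-04 to 0.853). Of these, 150 did not pass the threshold, as with all libraries in edgeR, and 14 passed: 8 without SP-Treg replicate 1, 4 by DESeq2, and 2 in fits added after seeing the data. DESeq2 gave -3.49 for Hba-a1, -3.49 for Hbb-bs, -1.49 for Alas2 and -3.39 for Slc4a1 (adjusted p = 0.0138, 0.0228, 0.0480 and 0.0395). Without SP-Treg replicate 1, Hba-a2 was at -3.73 within batch 3, and Hba-a1 at -3.37 with batch as a term. Both left out the library that was lowest for the gene, as did the 8 passing values without SP-Treg replicate 1. The first also has 1 BM-Treg library. No call is drawn from any of these fits. With each library left out, the ranges were -3.90 to -2.90 for Hba-a1, -3.83 to -2.98 for Hba-a2, -3.88 to -2.90 for Hbb-bs, -4.41 to -3.18 for Hbb-bt, -1.84 to -1.01 for Alas2, -3.77 to -2.56 for Slc4a1, -2.61 to -1.41 for Car2 (without BM-Treg replicate 1 and SP-Treg replicate 3), -3.86 to -2.95 for the Hba pair and -3.94 to -2.99 for the Hbb pair. The estimates were -2.17 to -1.13 by limma-voom and -2.32 to -0.67 on log2(FPKM + 1). The cause was not tested. A filter of at least 10 counts in every library kept only Alas2 of the 7 genes.

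Over all genes, 1172 passed (499 higher and 673 lower in BM-Treg), and 690 to 1048 with a library left out, the fewest without BM-Treg replicate 2. Fewer passed by limma-trend on log2(FPKM + 1) (765) and log2(FPKM + 0.1) (728), with batch as a term (258) or batch 3 alone (79), in these without SP-Treg replicate 1 (223 and 117), and at a minimum absolute log2 fold change of 1 (310). DESeq2 passed 1703. The split turned to 655 higher and 427 lower without normalization factors, 482 and 283 on log2(FPKM + 1), 454 and 274 on log2(FPKM + 0.1), and 632 and 599 with at least 10 counts in every library.

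Replicate numbers did not pair the tissues (correlations of deviations -0.106, 0.059, -0.176 and 0.040). With the replicate block, 948 genes passed and the 7 genes had log2 fold changes of -3.30 to -1.22, with none past the threshold. Values of SP-Treg replicate 1 rest on at most 11.52 counts per gene, so that its order among low genes is uncertain.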

Other observations

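Jchain, the joining chain of secreted antibodies, did not reach the filter with all libraries and had 3.0, 309.0, 107.0 and 77.0 counts in SP-Treg replicates 1 to 4 and at most 9.0 in a BM-Treg library. Ccr9, a chemokine receptor of T cells and plasmacytoid dendritic cells, was at 8.76 CPM in SP-Treg replicate 1 and at 21.7, 41.7 and 32.4 CPM in SP-Treg replicates 2 to 4, against 34.8 ± 5.13 CPM in BM-Treg (SD, n = 4), and did not pass the test (edgeR adjusted p = 0.607). These genes were chosen after their values were seen.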
